A study of Homo sapiens with 8 samples.

Results

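G15 alone was compared with no treatment in SKBR3 cells, a HER2-amplified human breast cancer line, over all genes that could be named from the array. The comparison is the value on the G15 array minus the value on the untreated array, taken for each of the 19775 genes with a symbol of their own, as the mean of a gene's probe sets. The 2 arrays belong to a set of 8. Per the labels, all cells spent 4 h in 10% charcoal-stripped serum and a further 3 h with G15 at 1e-05 M, without any addition (untreated), with BSA at 1e-06 M, with 0.1% ethanol, with estradiol at 1e-06 M, or with E2-BSA (estradiol bound to albumin) at 1e-06 M. E2-BSA at 1e-06 M was also given with G15 at 1e-05 M or with ICI at 1e-05 M. The labels name a vehicle for estradiol, ethanol, and none for G15, so an effect of a solvent cannot be told apart from that of G15 here. Each condition is 1 array, so no difference here has a replicate check, a test or an interval.

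The deposited values are centred on each probe set, which removes the level of a gene and leaves only its departure from the middle array. A value of 0 therefore means the middle of the set and not absence, and the presence of SKBR3 markers such as ERBB2 or of markers of other cell types cannot be read from these numbers. Differences are given on the log2 scale as deposited, whose base the sources used here do not give and which was read as 2. In bulk RNA, fewer cells with a transcript and less of it per cell cannot be told apart. The lower quartile over all probe sets was -0.07 on the G15 array and -0.05 on the untreated array, the upper quartile 0.09 and 0.05 in that order, and every array had a median of 0.0. The ethanol array stood apart, with an SD over genes of 0.304 for its difference from untreated and a highest difference of 7.73.

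GPER is a membrane receptor of the G-protein-coupled family that binds estradiol and is known for fast signalling through cAMP, release of EGF-like ligands and the MAP kinase pathway. SKBR3 cells are widely used to study it because they are commonly described as lacking the nuclear receptor ESR1. G15 is an antagonist of GPER and shares its ring scaffold with the agonist G-1. The comparison addresses what the antagonist does without any added estrogen.

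The G15 array lay close to the untreated array. LMTK3 alone was higher by 2-fold or more, which is 0.00506% of the 19775 genes, and 0 genes (0.0%) were lower by that much. At 1.5-fold, a log2 difference of 0.585, 72 genes (0.364%) were higher and 33 (0.167%) lower. BSA minus untreated, a pair without antagonist or hormone, gave 70 genes higher (0.354%) and 40 lower (0.202%) at 1.5-fold. The numbers of genes past 1.5-fold were thus about as large between the BSA and untreated arrays, without antagonist. Across all genes the SD of the difference was 0.168 for G15 minus untreated and 0.166 for BSA minus untreated. With the BSA array as comparator, G15 was higher in 38 genes and lower in 36 at 1.5-fold, and against the mean of the untreated and BSA arrays in 21 and 10.

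Of the 15 alpha- and beta-tubulin genes, 6 were lower by at least 1.25-fold on the G15 array than on the untreated array, where 2.46% of all genes were. The others ran from TUBA1C, just short of this at -0.31, to TUBB1 at 0.08. Alpha- and beta-tubulin form the dimers of which microtubules are built. Cells are known to match tubulin mRNA to the pool of free dimers: when free dimers are in excess, the mRNAs of alpha- and beta-tubulin are degraded while being translated, through the ribosome-bound factor TTC5. TUBB, TUBB3 and TUBA4A were named by the rule for named genes, and the family was then drawn up in full after their values were seen, as all 15 protein-coding genes whose symbols begin with TUBA or TUBB. Of the 15, 14 were below the untreated array, with a median difference of -0.18, beside a median of 0.01 and 45.1% below 0 over all genes. On BSA minus untreated the family had a median of -0.05 with 9 of 15 below 0, beside 49.4% of all genes. On ethanol minus untreated, also without G15, the median was -0.11 with 11 of 15 below 0. Over all genes the median there was -0.03, with 56.0% below 0. Among the tubulins below 0 were TUBB at -0.50, TUBB4B at -0.33 and TUBB3 at -0.27, while TUBB2A was at 0.41. Whether G15 was given in a solvent is not known from the labels, and its part in the tubulin values was not tested.

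TUBA4A, an alpha-tubulin, stood at -0.50 with G15 and 0.14 without treatment, and at 0.09 with BSA, 0.00 with ethanol, -0.12 with estradiol, -0.65 with E2-BSA plus G15, 0.17 with E2-BSA and -0.07 with E2-BSA plus ICI. Its lowest values were those of the 2 arrays with G15. TUBB2A, a beta-tubulin, stood at -0.53 with G15 and -0.06 untreated, at 0.00 with BSA, 0.36 with ethanol, 0.14 with estradiol, -0.49 with E2-BSA plus G15, 0.06 with E2-BSA and 0.07 with E2-BSA plus ICI. TUBB6 stood at -0.39 with G15 and 0.00 untreated, at 0.00 with BSA, -0.13 with ethanol, -0.02 with estradiol, -0.36 with E2-BSA plus G15, 0.08 with E2-BSA and 0.06 with E2-BSA plus ICI. For both beta-tubulins the arrays with G15 were the lowest of the 8 and did not overlap with the other 6. The share of all genes with their lowest values on these 2 arrays was not counted. How unusual this order is cannot be told here.

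TUBB3 stood at -0.40 with G15 and 0.05 untreated, and at -0.32 with E2-BSA plus G15 and 0.08 with E2-BSA. On the 4 other arrays it lay between -0.22 (ethanol) and 0.03 (estradiol). TUBB4B stood at -0.34 with G15 and 0.08 untreated, at -0.36 with E2-BSA plus G15 and 0.08 with E2-BSA, and the ethanol array was next at -0.25. These genes, too, had their lowest values on the arrays with G15. TUBB, a widely expressed beta-tubulin gene, stood at -0.43 with G15 and 0.13 untreated. It stood at -0.23 with E2-BSA plus G15 and 0.08 with E2-BSA, and its ethanol value of -0.37 lay between those of the G15 arrays. The plot of tubulin values by array shows the separation.

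**Figure D1:**
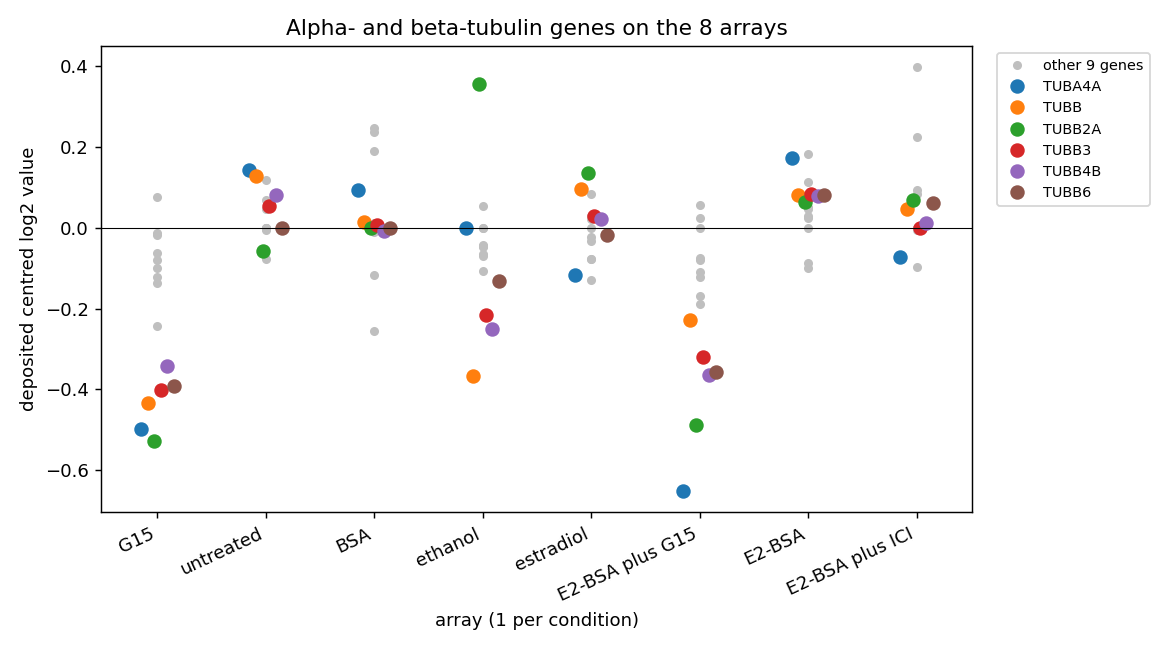
Deposited centred log2 value (vertical axis) of the 15 alpha- and beta-tubulin genes on each of the 8 arrays (horizontal axis), 1 point per gene and array, 6 genes in colour and the other 9 in grey. On the G15 array the coloured genes lie between -0.53 and -0.34, on the untreated array between -0.06 and 0.14.

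The pair of arrays that differ by G15 in the presence of E2-BSA shares no array with the first pair. TUBA4A was named for its values in both pairs, so its second value is a description only, and the family was listed with both pairs in view. On E2-BSA plus G15 minus E2-BSA, 12 of the 15 tubulin genes were below 0 and the family median was -0.28, where 51.7% of all genes were below 0. TUBA4A differed by -0.83, TUBB2A by -0.55, TUBB4B and TUBB6 by -0.44 each, TUBB3 by -0.40 and TUBB by -0.31. The antagonist ICI, added to E2-BSA at the same 1e-05 M, gave a family median of -0.02, with TUBA4A at -0.25, TUBB2A at 0.00 and TUBB6 at -0.02. E2-BSA plus G15 set directly against E2-BSA plus ICI gave -0.58 for TUBA4A, -0.56 for TUBB2A and -0.42 for TUBB6. No interval can be given for these differences, and ICI and G15 were not compared without E2-BSA here.

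At 1.25-fold, a log2 difference of 0.322, the 6 tubulin genes lower on G15 minus untreated were TUBA4A, TUBB, TUBB2A, TUBB3, TUBB4B and TUBB6. On E2-BSA plus G15 minus E2-BSA 5 of 15 were lower at 1.25-fold, beside 3.54% of all genes. In all, 78 genes (0.394%) were lower in both pairs, and 26 of them (0.131% of all genes) were also lower than BSA by 1.25-fold on the G15 array. Of these 26 genes 5 were tubulins: TUBA4A, TUBB2A, TUBB3, TUBB4B and TUBB6. The threshold of 1.25-fold was chosen after the values were seen.

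Tubulin transcripts are alike in sequence, and the members of the family are not independent measurements. Of the 26 tubulin probe sets, 24 were lower with G15 than untreated and 22 lower with E2-BSA plus G15 than with E2-BSA. With E2-BSA plus ICI 17 were lower than with E2-BSA. Over all genes 45.1%, 51.7% and 46.8% were below 0 in these comparisons, and the shares over all probe sets were not counted. Among the 10 probe sets that are not of the types _x_at and _s_at, which can match several transcripts, 9 were lower with G15 than untreated. On the E2-BSA pair 7 of the 10 were lower, and with ICI in place of G15 4 were. Each of TUBA4A, TUBB2A and TUBB6 is measured by 1 probe set of the more specific kind. TUBB has such a probe set beside its shared ones, and its 3 probe sets lay between -0.63 and -0.52 on G15 minus untreated. On the E2-BSA pair the specific probe set of TUBB differed by -0.15, and the shared ones by -0.41 and -0.37. The specific one was lowest with ethanol, at -0.56, beside -0.37 with G15 and -0.15 with E2-BSA plus G15. TUBB3 and TUBB4B have only shared ones.

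The other tubulin genes stayed nearer to the untreated array. TUBA1C differed by -0.31 and TUBA1B by -0.18 on G15 minus untreated, and by -0.28 and -0.13 on the E2-BSA pair. TUBA8, TUBA4B and TUBB4A differed from untreated by -0.14, -0.12 and -0.10, TUBAL3 by -0.06, TUBA1A by -0.01 and TUBB1 by 0.08, while TUBB2B differed by -0.0027. TUBB4A and TUBA8 were higher with E2-BSA plus G15 than with E2-BSA, at 0.12 and 0.14. No level can be read, so whether the cells express these genes at all is not known from the values.

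Gamma-tubulin, which seeds microtubules, and its complex were measured by 9 genes together with delta- and epsilon-tubulin. Their median was -0.06 on G15 minus untreated, 0 of 9 was lower by 1.25-fold, and TUBG1 differed by -0.09. The 15 tubulin cofactors and microtubule-associated genes, also listed after the tubulin values were seen, had a median of -0.0029 and ranged from -0.27 to 0.21. Among them TTC5, the factor named above, differed by 0.08, and the microtubule destabilizer STMN1 by -0.0029. Of actins and lamins, ACTB differed by -0.05, and LMNB1, a nuclear lamina protein, by -0.67. LMNB1 stood at -0.10 with G15, 0.57 untreated and 0.22 with BSA, where the untreated value was the highest of the 8. On the E2-BSA pair LMNB1 differed by -0.76, a value that took part in its being named.

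Promoter sequence is shown for 3 of the tubulin genes that were lower by 1.25-fold, to let their start regions be compared. TUBA4A, TUBB and TUBB4B are given from 250 bases before to 50 after the start of the gene, from RefSeq (GRCh38.p14), 5′ to 3′ on the gene's strand. TUBA4A lies at chr2:219253869-219254168, minus strand; TUBB at chr6:30720102-30720401, plus strand; TUBB4B at chr9:137241037-137241336, plus strand. Capitals mark the CCAAT box (CCAAT, and ATTGG on the other strand) and the GC box (GGGCGG, and CCGCCC on the other strand). The 2 motifs can share bases where they adjoin.
TUBA4A: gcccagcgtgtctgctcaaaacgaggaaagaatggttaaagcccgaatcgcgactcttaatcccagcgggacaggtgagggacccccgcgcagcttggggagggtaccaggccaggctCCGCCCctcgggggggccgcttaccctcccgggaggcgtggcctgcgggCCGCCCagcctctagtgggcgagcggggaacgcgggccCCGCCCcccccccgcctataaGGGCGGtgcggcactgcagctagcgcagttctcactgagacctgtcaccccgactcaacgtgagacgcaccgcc
TUBB: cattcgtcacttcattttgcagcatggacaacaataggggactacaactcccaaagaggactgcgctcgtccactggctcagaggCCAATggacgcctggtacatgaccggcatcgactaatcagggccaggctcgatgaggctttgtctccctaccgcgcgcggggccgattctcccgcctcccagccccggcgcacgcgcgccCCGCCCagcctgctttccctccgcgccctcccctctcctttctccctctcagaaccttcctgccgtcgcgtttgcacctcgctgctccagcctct
TUBB4B: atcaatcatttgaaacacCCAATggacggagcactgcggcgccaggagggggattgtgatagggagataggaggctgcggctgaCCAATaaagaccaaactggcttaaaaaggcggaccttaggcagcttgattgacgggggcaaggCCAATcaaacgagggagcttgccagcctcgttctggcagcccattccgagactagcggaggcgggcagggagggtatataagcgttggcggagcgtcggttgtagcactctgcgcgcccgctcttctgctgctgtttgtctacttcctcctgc
TUBA4A holds 0 CCAAT boxes and 4 GC boxes, TUBB 1 of each, and TUBB4B 3 CCAAT boxes and 0 GC boxes. TUBB3 and TUBB6 hold 0 of either in this window. All 15 tubulin genes matched the promoter table by symbol. A CCAAT box was found in 7 of the 15 windows, beside 35.7% of all 27305 promoters, and a GC box in 8 of 15, beside 44.6%. Neither box is in the windows of all the tubulin genes that were lower, and a match is a description of letters only.

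Among MAP kinase feedback genes, SPRY2 stood apart. SPRY2 is an inhibitor of receptor tyrosine kinase signalling that is induced by the pathway it restrains. It stood at -0.70 with G15 and 0.00 untreated, and at -0.03 with BSA, 0.26 with ethanol, 0.33 with estradiol, -0.21 with E2-BSA plus G15, 0.05 with E2-BSA and 0.01 with E2-BSA plus ICI. The arrays with G15 held its lowest values, an order whose share over all genes was not counted, and G15 differed from BSA by -0.68. SPRY2 was also among the 3 genes lower by 1.5-fold against both untreated and BSA, with TUBA4A and AOC2. It rests on 1 probe set.

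The 21 genes of this pathway list had a median of -0.03 on G15 minus untreated. Of them 12 were below 0, where 45.1% of all genes were, and SPRY2 was the only member past 1.5-fold. DUSP5, a phosphatase of ERK, stood at -0.47 with G15 and -0.10 untreated. It differed from BSA by -0.47, and by -0.37 on the E2-BSA pair, and its ethanol value was 1.69. With ICI in place of G15, DUSP5 differed from E2-BSA by -0.25. DUSP6, a cytosolic ERK phosphatase, differed from untreated by -0.25 and from BSA by -0.26, but by -0.01 on the E2-BSA pair. DUSP4 differed by -0.03 and SPRY4 by 0.05. Of the transcription factors ETV4 and ETV5, which ERK signalling induces, the differences were 0.06 and 0.07.

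Early genes linked to GPER signalling lay mostly above the untreated array. Of the 12 genes 9 were higher, with a median of 0.12 and none past 1.5-fold, where 52.4% of all genes were above 0. The median was -0.0012 on BSA minus untreated and -0.02 on the E2-BSA pair. EGR1, an immediate early transcription factor, stood at -0.05 with G15 and -0.46 untreated, where the untreated array was the lowest of the 8, and it stood at -0.35 with BSA. FOS stood at 0.00 with G15, -0.32 untreated and -0.10 with BSA, and SNAI1, a repressor of epithelial genes, at 0.15, -0.27 and 0.00. For both, too, the untreated array was the lowest of the 8. CCN2, a matrix protein used as a marker of GPER activity, differed by -0.14 on G15 minus untreated, beside -1.01 on E2-BSA plus G15 minus E2-BSA. With ICI in place of G15, CCN2 differed from E2-BSA by -0.51. Immediate early genes as a whole, 27 measured, had a median of 0.04 with 17 above 0, beside a median of 0.04 on BSA minus untreated.

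The receptors showed little difference. GPER1, the target of G15, stood at 0.08 with G15 and 0.06 untreated. ESR1 differed by 0.02, ESR2 by -0.02 and ERBB2 by -0.05. The mineralocorticoid receptor gene NR3C2 differed by -0.41 and was lowest on the G15 array. Of 19 nuclear estrogen receptor targets the median was 0.02. NRIP1, a corepressor, stood at -0.42 with G15 and 0.14 untreated, at -0.26 with BSA, and differed by -0.42 on the E2-BSA pair. With ICI in place of G15, NRIP1 differed from E2-BSA by -0.48. Its 2 probe sets, both of the shared types, differed from untreated by -1.08 and -0.03. TFF1 was at 0.00 with G15, -0.30 untreated and 0.08 with BSA. ID1, which was far lower with E2-BSA plus G15 than with E2-BSA (-1.74), stood at 0.00 with G15 alone and 0.01 untreated. It was also far lower with ICI in place of G15 (-1.97) and with estradiol than untreated (-2.03). ID2 differed by -0.17 on G15 minus untreated.

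Sterol genes lay below the untreated array with G15 and, for those named here, with BSA, 2 differences that share the untreated array. INSIG1, which holds the sterol sensor SCAP in the endoplasmic reticulum, stood at -0.30 with G15 and 0.24 untreated, and at -0.12 with BSA. STARD4, a sterol carrier, was at -0.26 with G15, 0.10 untreated and -0.21 with BSA. SQLE, an enzyme of cholesterol synthesis, was at -0.23 with G15, 0.07 untreated and -0.33 with BSA. Of the 19 cholesterol genes measured 14 were below untreated, where 45.1% of all genes were, with a median of -0.09. Against BSA 10 were below 0, where 44.5% of all genes were, with a median of -0.02. On the E2-BSA pair INSIG1 differed by -0.53 and HMGCS1 by -0.53. ICI in place of G15 gave differences from E2-BSA of -0.46 and -0.47 in the same order. ABCA1 and ABCG1, exporters of cholesterol, differed from untreated by -0.38 and -0.25, in a list of 7 with a median of -0.13. Without probe sets of the shared types ABCA1 differed by -0.22, ABCG1 by -0.07 and SQLE by -0.19.

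CYP1A1, a cytochrome of xenobiotic metabolism and a target of the aryl hydrocarbon receptor, stood at 0.47 with G15 and 0.00 untreated. It stood at -0.53 with BSA, -0.36 with ethanol, 0.33 with estradiol, 0.21 with E2-BSA plus G15, -0.23 with E2-BSA and 0.00 with E2-BSA plus ICI. The G15 array held its highest value, 0.998 above BSA. CYP1B1 of the same list differed from untreated by 0.17 and from BSA by 0.56, while AHRR differed by 0.00 and TIPARP by -0.02 from untreated. The 10 genes of the list had a median of 0.11, with LRRC25 at 0.68 as its only member past 1.5-fold. LRRC25 stood at 0.35 with G15, 0.00 with BSA and -0.33 untreated, its lowest value of the 8. It rests on 1 probe set of the shared types.

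Luminal identity factors included some that were lowest with G15. ELF3, an epithelial transcription factor, stood at -0.38 with G15 and -0.01 untreated, and at 0.05 with BSA, with all 3 probe sets lower by between 0.27 and 0.43. FOXA1 stood at -0.33 with G15, -0.04 untreated and 0.02 with BSA, and GATA3 at -0.28, -0.01 and -0.15. Without probe sets of the shared types GATA3 differed by -0.0089. On the E2-BSA pair ELF3 differed by -0.35, GATA3 by -0.20 and FOXA1 by 0.00. ICI in place of G15 gave differences from E2-BSA of -0.26, -0.07 and -0.37 in the same order. Keratins KRT8 and KRT18 differed from untreated by 0.01 each. Of 17 genes of the list 11 were below 0, where 45.1% of all genes were, with a median of -0.07. Against BSA 14 of the 17 were below 0, where 44.5% of all genes were, with a median of -0.13.

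Of 21 hypoxia-inducible genes 16 were below untreated, where 45.1% of all genes were, with a median of -0.05 and 0 lower by 1.25-fold. The stress regulator DDIT4 differed by -0.25, BNIP3L by -0.22 (-0.13 without shared probe sets) and ADM by -0.21, and ANKRD37 was at 0.22. From BSA these genes differed by -0.15, -0.02, -0.28 and 0.06 in the same order. On BSA minus untreated the list median was 0.04. Glucocorticoid-type targets were below untreated in 10 of 12 genes, with a median of -0.08 beside -0.01 for BSA minus untreated. The lowest were ZBTB16 and TSC22D3 at -0.25 each, TSC22D3 at 0.025 without shared probe sets. From BSA ZBTB16 differed by -0.51 and TSC22D3 by -0.02. Replication genes of the G1/S list were below untreated in 17 of 21, with a median of -0.08, beside 45.1% of all genes. By 1.25-fold 2 of them were lower, beside 2.46% of all genes. The median was -0.14 on BSA minus untreated and 0.05 on G15 minus BSA. Of 20 interferon-stimulated genes 11 were above and 9 below untreated, with a median of 0.02. Against BSA 17 of the 20 were below 0, with a median of -0.19, and on BSA minus untreated 3 were below 0, with a median of 0.20. Over all genes 44.5% and 49.4% were below 0 in these comparisons. IFI44L stood at -0.69 with G15, -0.11 untreated and 0.00 with BSA, and IFIT1 at -0.48, 0.00 and 0.21, while IFI27 differed from untreated by 0.37. IFI27 stood at 0.88 with BSA, so that it differed by -0.88 from that array.

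Over the 35 lists drawn up from general knowledge, medians ran from -0.13 (cholesterol efflux) to 0.30 (nuclear noncoding RNAs), with 18 above and 17 below 0. Of their 493 measured genes 4 were higher and 1 lower at 1.5-fold, a share of 1.01%, beside 0.531% of all genes; the lists were drawn up with earlier results known. Markers of other cell types, in case of foreign RNA, ranged from -0.21 to 0.20 for 9 endothelial, -0.19 to 0.08 for 9 immune and -0.19 to 0.09 for 9 fibroblast genes. The endothelial list had a median of 0.12, and its part in other results was not tested. Among stress and housekeeping lists, the medians were -0.01 for 12 heat shock genes, -0.05 for 30 unfolded protein and ATF4 genes, 0.08 for 16 NRF2 redox genes and metallothioneins, and -0.01 for 14 cytosolic ribosomal proteins. The plot of list medians sets every list beside the other pairs.

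**Figure D2:**
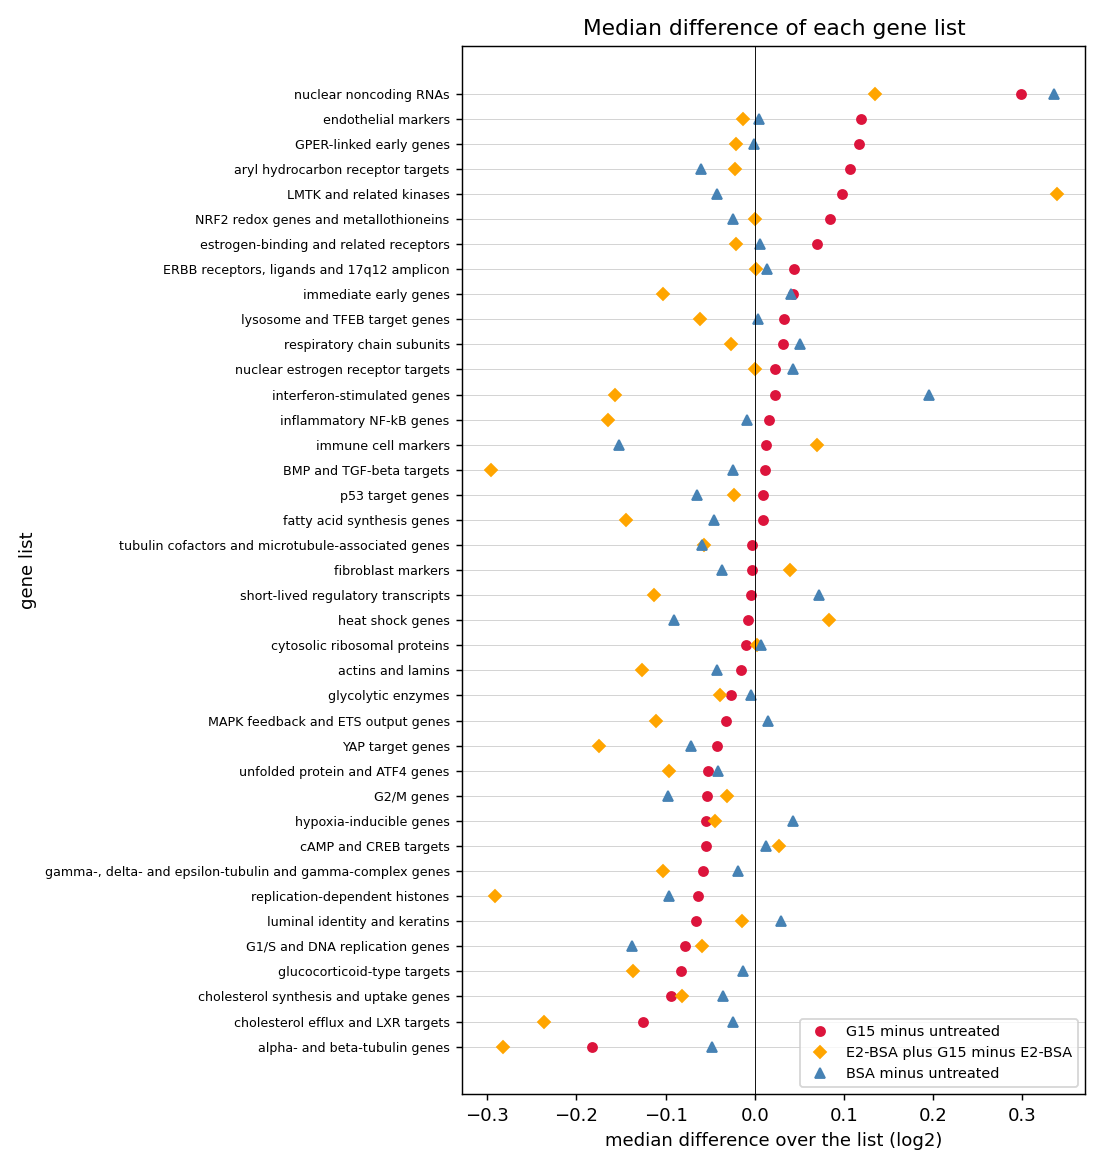
Median log2 difference (horizontal axis) of each gene list (vertical axis) for G15 minus untreated, E2-BSA plus G15 minus E2-BSA, and BSA minus untreated. Alpha- and beta-tubulin genes have the lowest median with G15 (-0.18), and the nuclear noncoding RNAs, the highest with G15 (0.30), are as high with BSA (0.34).

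The genes highest with G15 fell into those that were as high with BSA and those that were not. LMTK3, a membrane-anchored kinase, stood at 0.62 with G15 and -0.63 untreated, at 0.54 with BSA, -0.09 with ethanol, -0.13 with estradiol, 0.74 with E2-BSA plus G15, 0.00 with E2-BSA and 0.49 with E2-BSA plus ICI. LMTK3 differed from untreated by 1.25 and from BSA by 0.08, and the untreated array held its lowest value. BANF1, a chromatin protein of the nuclear envelope, stood at 0.61 with G15 and -0.19 untreated, and at 0.61 with BSA. The Polycomb subunit PCGF1 stood at 0.45 with G15, -0.32 untreated and 0.46 with BSA, and EPHX1, an epoxide hydrolase, at 0.52, -0.25 and 0.44.

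MALAT1, a nuclear noncoding RNA, stood at 0.65 with G15 and -0.32 untreated, and at 1.04 with BSA. Its 12 probe sets on G15 minus untreated ran from -0.77 to 2.33, and without probe sets of the shared types it differed by -0.77. ACTN4, an actin crosslinker, was 0.72 above untreated and 0.02 above BSA. PKM, a glycolytic enzyme gene, was 0.71 above untreated and differed from BSA by -0.29. ACTN4 differed by 0.65 on the E2-BSA pair, PKM by 0.52 and LMTK3 by 0.74, and ACTN4, LMTK3, MALAT1 and MIF-AS1 were named partly by that pair. MIF-AS1, antisense to a cytokine gene, was 0.77 above untreated, 0.12 above BSA and higher by 0.74 on the E2-BSA pair. With ICI in place of G15, ACTN4 was above E2-BSA by 0.56, PKM by 0.35, MALAT1 by 0.98 and MIF-AS1 by 0.65. These higher values with E2-BSA were thus not particular to G15. Antisense and sense transcripts are told apart only as far as the probes do so.

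SPMAP2, CMA1, VN1R5 and DYNLRB2 were high with G15 and not with BSA. SPMAP2 stood at 0.82 with G15, -0.14 untreated and 0.00 with BSA, and CMA1, a mast cell protease, at 0.76, -0.18 and -0.04. VN1R5, a pheromone-type receptor, stood at 0.67 with G15, -0.22 untreated and 0.05 with BSA, and DYNLRB2, a dynein light chain, at 0.58, -0.31 and 0.01. Each has 1 probe set. With E2-BSA plus G15 they stood at 0.00, 0.18, 0.00 and -0.06 in the same order, and with E2-BSA at -0.17, -0.32, -0.14 and -0.37. On the E2-BSA pair they thus differed by 0.17, 0.51, 0.14 and 0.31. ICI in place of G15 gave differences from E2-BSA of 0.08, 0.39, 0.28 and 0.56. CMA1 was higher by 1.25-fold in both pairs and against BSA. The 3 other genes of the upper 12 were LAG3, TNNC1 and C3orf62, at 0.80, 0.78 and 0.77 above untreated and 0.36, 0.34 and 0.29 above BSA.

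The lowest genes divided in the same way. STAG2, a cohesin subunit, stood at -0.68 with G15 and 0.04 untreated, and at -0.60 with BSA. EDEM3, which marks misfolded glycoproteins for degradation, stood at -0.62, 0.11 and -0.57, and the lipid phosphatase gene PLPP3 at -0.72, 0.00 and -0.98. KRT5, a basal keratin, stood at -0.26, 0.45 and -0.29, and ADAMTS3, a procollagen protease, at -0.43, 0.35 and -0.35. For PLPP3 only probe sets of the shared types were lower, and without them it differed by 0.04. STAG2 differed by -0.12 without them, and EDEM3 has no others.

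AOC2, an amine oxidase measured by a shared type alone, stood at -0.35 with G15 and 0.41 untreated, and at 0.35 with BSA. FHAD1-AS1 stood at -0.52 with G15, 0.23 untreated and 0.00 with BSA, and differed by 0.27 on the E2-BSA pair. AGO2, the slicing Argonaute of small RNA silencing, stood at -0.71, 0.00 and -0.38. The zinc finger gene ZNF613 had the largest negative difference, -0.87, with -0.63 with G15, 0.24 untreated and -0.34 with BSA. HESX1 was at -0.50 with G15, 0.31 untreated and -0.32 with BSA, and GPRASP3 at -0.28, 0.46 and 0.00. The plot of the 24 genes shows both kinds.

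**Figure D3:**
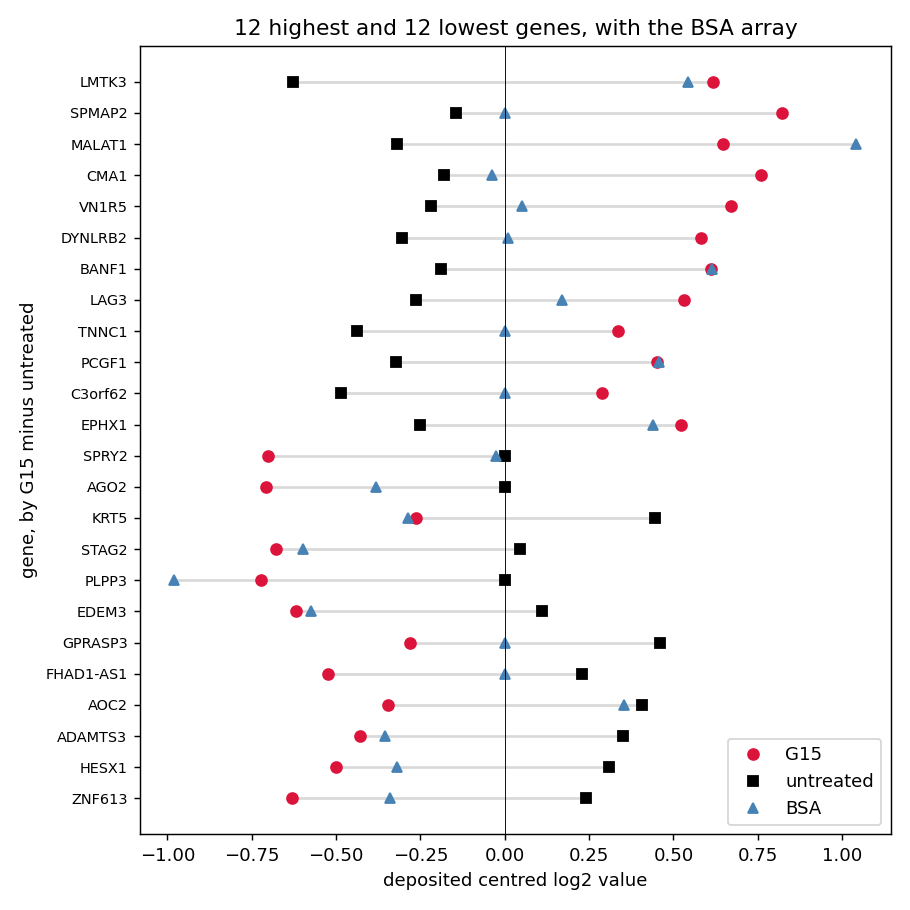
Deposited centred log2 value (horizontal axis) on the G15, untreated and BSA arrays for the 12 genes with the largest positive and the 12 with the largest negative G15 minus untreated difference (vertical axis, ordered by that difference). LMTK3, BANF1 and PCGF1 have G15 and BSA side by side, whereas SPRY2 and AOC2 have BSA beside untreated.

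Counted over all genes past 1.5-fold, 11 of the 72 higher genes were also 1.5-fold above BSA, and 35 were within 1.25-fold of it or below it. Of the 33 lower genes 3 were 1.5-fold below BSA as well, and 20 were less than 1.25-fold below it. G15 minus BSA uses the same G15 array, so these counts are not a second measurement of it. Most of these genes rest on 1 probe set, 64 of the 72 and 28 of the 33.

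On the E2-BSA pair, which uses other arrays, 56 of the 72 higher genes were above 0, where 46.2% of all genes were, and 25 of the 33 lower genes were below 0, where 51.7% were. At 1.5-fold that pair had 86 higher genes (0.435%) and 71 lower (0.359%), among them 8 of the 72 and 3 of the 33. LMTK3 and MALAT1, which were high with BSA too, are among the 8.

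Genes higher by 1.25-fold in both pairs and against BSA numbered 36 (0.182%). CCDC186, a protein of dense-core vesicles, stood at 0.50 with G15 and -0.12 untreated, at 0.05 with BSA, and differed by 1.21 on the E2-BSA pair and by 0.98 with ICI in place of G15. Its 3 probe sets on G15 minus untreated ran from -0.09 to 1.75. FAM111B, a protease, stood at 0.42 with G15, 0.02 untreated and 0.07 with BSA, with both probe sets at 0.40 above untreated, and differed by 1.12 on the E2-BSA pair and by 1.13 with ICI. KIF21A, a kinesin, differed by 0.59, 1.10 and 0.998 in the same comparisons, and EIF4G1, a scaffold of translation initiation, by 0.47, 0.78 and 0.96. KIF21A and EIF4G1 were picked after their values were seen. Of the 36 genes 33 were above E2-BSA with ICI as well, where 51.4% of all genes were, a difference that shares the E2-BSA array.

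The 26 genes lower in all of these comparisons also included TENT2, ELF3, DUSP5, IFIT1, TULP4, AGO2 and LMNB1, and PCF11 and HOTAIR, which were picked after their values were seen. TENT2, a poly(A) polymerase, stood at -0.76 with G15 and -0.19 untreated, at 0.01 with BSA, and differed by -0.38 on the E2-BSA pair. TULP4 was at -0.48 with G15, 0.09 untreated and -0.10 with BSA, and differed by -0.53 on the E2-BSA pair. Its specific probe set differed by -0.13 and -0.20 in these pairs, under 1.25-fold. PCF11, a factor of transcription termination, differed by -0.43, -0.36 and -0.45, and HOTAIR, a long noncoding RNA, by -0.41, -0.41 and -0.74. With ICI in place of G15, HOTAIR differed by -0.72, PCF11 by -0.35 and TENT2 by -0.55 from E2-BSA. Of the 26 genes 22 were below E2-BSA with ICI as well, and 18 of the 21 that are not tubulins, where 46.8% of all genes were. That difference shares the E2-BSA array. IFIT1 was at -1.89, LMNB1 at -0.55 and AGO2 at -0.44 with ICI.

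**Figure D4:**
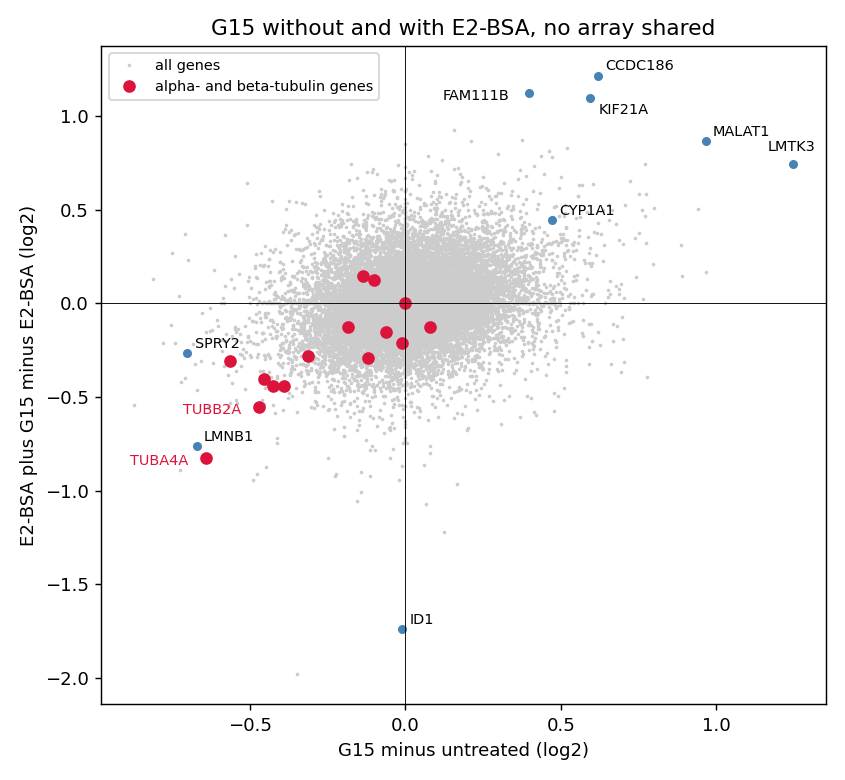
Log2 difference of each of the 19775 genes on E2-BSA plus G15 minus E2-BSA (vertical axis) against G15 minus untreated (horizontal axis), pairs that share no array. TUBA4A lies at -0.64 and -0.83 and TUBB2A at -0.47 and -0.55 on the horizontal and vertical axes, while ID1 is at -0.01 and -1.74.

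Among genes with several probe sets all on 1 side of both untreated and BSA, the top 8 each way were named. Those not given above were DPF1, CXCR4 and RSRP1 below and ERICH1-AS1, GARIN4, RFLNB, ESPNL, YARS1, SVOP and TMEM92-AS1 above. The number of all genes that met this condition was not counted. CXCR4, the receptor of the chemokine CXCL12, stood at -0.45 with G15 and -0.03 untreated, and at 0.04 with BSA, with 3 probe sets between -0.62 and -0.28 on G15 minus untreated, the specific one at -0.28. On the E2-BSA pair CXCR4 differed by 0.12. DPF1, a chromatin remodelling subunit, differed by -0.50 from untreated, by -0.43 from BSA and by 0.08 on the E2-BSA pair. YARS1, the tyrosyl-tRNA synthetase, stood at 0.20 with G15, -0.19 untreated and -0.19 with BSA, and differed by -0.25 on the E2-BSA pair. Without its shared probe set YARS1 was 0.71 above untreated. CXCR4, DPF1 and YARS1 thus lay on opposite sides in the 2 pairs.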

How the data were processed

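Expression was measured with 8 Affymetrix arrays of 54675 probe sets, 1 per condition, from biotin-labelled total RNA, per the labels' protocols. The deposited log2 values are those of the authors; the sources used here do not give their summarization, normalization, log base or centring. From the values, no probe set has over 4 of its 8 values on either side of 0, so levels are removed and no filter on low values was possible. Of the probe sets, 62 controls were left out, 41091 carried 1 gene by the platform annotation (41037 matched to a current record), 1801 several and 11721 none. A gene is the mean of its probe sets, with 9252 genes on 1 and 10523 on several.

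Differences were taken between single arrays with pandas 2.3.3 and numpy 2.4.6, with no test; the counting was tested on simulated data. Members, lists and thresholds were chosen with earlier results of these data known. Named were the 12 highest and 12 lowest genes; 8 each way with at least 2 probe sets all on 1 side of untreated and BSA, ranked by the smaller difference; 6 each way by the smaller of both G15 pairs; list members at 1.5-fold; up to 4 members of each list by size; and the receptors, ID1 and ID2. The tubulin, tubulin-cofactor, gamma-tubulin and actin and lamin lists and the 1.25-fold threshold were chosen after the values were seen; others named are list members or marked in the text. Alternatives were the scaling, the value of a gene, the probe sets and the comparator.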

Additional observations from a re-analysis of the deposited data

Results flagged for a closer look

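2 of the named genes differed in opposite directions on the 2 G15 pairs, each by 1.25-fold or more. KRT5 differed by 0.37 on E2-BSA plus G15 minus E2-BSA and by -0.71 on G15 minus untreated. TNNC1 differed by -0.40 on E2-BSA plus G15 minus E2-BSA and by 0.78 on G15 minus untreated. Each value is 1 array minus another, and the difference between the pairs was not tested.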

How the results depend on the processing

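Every array already had a median of 0.0, so centring on it could show nothing. Quantile normalization of the arrays gave 8 genes higher and 15 lower at 2-fold and 98 lower at 1.5-fold on G15 minus untreated, and 149 higher and 148 lower on E2-BSA plus G15 minus E2-BSA. With the probe set of the largest SD for each gene the counts were 30 and 25 at 2-fold, 270 and 274 at 1.5-fold, and 289 and 298 on the E2-BSA pair, and 115 genes were lower and 123 higher in both pairs and against BSA. Against the BSA array 0 genes were higher and 1 lower at 2-fold, 38 were higher at 1.5-fold, and the tubulin median was -0.34; against the mean of untreated and BSA 0 were higher at 2-fold, and 21 and 10 higher and lower at 1.5-fold. Over the alternatives that median ran from -0.34 to -0.13. Without probe sets of shared types 3 tubulin genes, in place of 5, were lower by 1.25-fold on the E2-BSA pair, and 4, in place of 6, on G15 minus untreated. TUBB3 and TUBB4B have only shared probe sets and had no value in that setting. Lists with a median at least 0.1 from 0 numbered 5, and 3 with the median of the probe sets and 8 against BSA. Against BSA 39 of 181 named genes and 12 of 35 list medians had the opposite sign. Among genes past 1.5-fold and lists past 0.1 these were the nuclear noncoding RNAs (-0.12), BANF1 (-0.0031), ELF1 (0.16), KRT5 (0.023), MALAT1 (-0.40), PCGF1 (-0.0065), PKM (-0.29) and PLPP3 (0.26). Without shared probe sets 7 of 145 named genes had the opposite sign, of those past 1.5-fold MALAT1 (-0.77) and PLPP3 (0.042). The causes were not tested. Of 1231 values of named genes under an alternative, 999 moved by less than 0.166, the SD of BSA minus untreated. Both counts include 181 values from the centring, which could not move, so they overstate how stable the values are. No paired analysis was possible because each condition is 1 array.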
